A study of Mus musculus with 4 samples.

Results

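The 8 genes described here encode parts of the receptor complexes for Wnt7a, Wnt7b and Norrin in brain endothelial cells, or relatives of these parts. They are Adgra2, which encodes Gpr124, its partner Reck, and Adgra3, which encodes the close relative Gpr125. The others are the Frizzled receptors Fzd4 and Fzd6, the co-receptors Lrp5 and Lrp6, and the tetraspanin Tspan12. All 8 were chosen by gene name and were found among the 21578 genes in the tables and among the 15909 genes that could be tested. Gpr124 and Reck are known to act together on the endothelial surface, where Reck binds Wnt7a and Wnt7b and Gpr124 brings the bound ligand to a Frizzled and to Lrp5 or Lrp6. Norrin is known to bind Fzd4 directly, and Tspan12 raises the response of Fzd4 to Norrin. Both routes stabilize beta-catenin in the endothelial cell, and in mice they are known for guiding vessels into the brain and retina and for forming the blood-brain barrier.

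RNA was sequenced from brain endothelial cells of C57BL/6 mice at postnatal day 0, and the question was which genes depend on endothelial PD-1. The control libraries came from Pd1fl/fl mice, whose Pdcd1 gene, encoding PD-1, is flanked by loxP sites. The other libraries came from Pd1cKO-Tie2 mice, which carry the same floxed alleles together with a Cre recombinase driven by the Tie2 promoter, so the floxed alleles are common to both genotypes. Tie2 promoter-driven Cre is known to act in blood cells as well as in endothelial cells. Each genotype had 2 libraries, and neither the number of mice behind a library nor whether the libraries came from separate mice is stated, so p-values measure only the spread between these libraries. One of the Pd1cKO-Tie2 libraries carries a number in the tables that matches no sample label and is known by its genotype alone. The cells were sorted from brain tissue after staining for CD31, an endothelial surface protein, and CD45, a protein of blood cells, and whether they were cultured before RNA was extracted is not stated. In such bulk samples fewer cells of a type and less RNA per cell cannot be told apart.

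The libraries held 13715837 to 24147311 counted reads. The deleted gene, Pdcd1, was counted 32 times in Pd1fl/fl replicate 1 and 0 times in each of the other libraries, where the 0 of Pd1fl/fl replicate 2 was filled in for an unlisted gene and allows up to 4 counts. At this depth Pdcd1 did not separate Pd1fl/fl replicate 2 from the Pd1cKO-Tie2 libraries. All 16 endothelial markers were present in every library. In TMM-scaled CPM, which are counts scaled to the size of each library, the neutrophil markers summed to 906 in Pd1fl/fl replicate 1 and to between 1.17 and 55.3 in the other 3 libraries, so this library stood apart. The log2 fold changes of the 8 genes, their ratios and the counts and medians of the gene lists were therefore also computed without it.

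The genes lie on separate chromosomes except for Lrp6 and Tspan12, which are both on chromosome 6. In GRCm38, Adgra2 spans chr8:27085583-27123436 on the plus strand, Reck chr4:43875530-43944806 on the plus strand and Adgra3 chr5:49959956-50059006 on the minus strand. Fzd4 spans chr7:89404355-89413134 and Fzd6 chr15:39006280-39038186, both on the plus strand. Lrp5 spans chr19:3584828-3686564, Lrp6 chr6:134446476-134566965 and Tspan12 chr6:21771395-21852515, all on the minus strand. Their merged exons in the GENCODE M21 annotation numbered from 2 in Fzd4 to 23 in Reck, Adgra3 and Lrp5, and covered from 3311 bases in Tspan12 to 13672 bases in Lrp6. An exon of Adgra2 shares 73 bases with Brf2 on the other strand, and Brf2 had 203 and 172 counts in the Pd1fl/fl libraries and 258 and 191 in the Pd1cKO-Tie2 libraries. The counting is not stated to use strand, so reads of both genes in the shared bases cannot be told apart. Tspan12 shares 98 bases with Gm30270 on the other strand, which had 0 to 6 counts in a library. Fzd6 shares 152 bases with Gm26704 on the other strand, which is not listed in the tables.

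RefSeq promoter windows of GRCm38.p6, from 250 bases before to 50 bases after the transcription start, could be matched to Adgra3, Reck, Tspan12 and Fzd4. They are shown for the 3 genes whose window holds a TCF/LEF word, since TCF/LEF factors are the nuclear partners of beta-catenin at the end of this pathway. Capitals mark CTTTGA or CTTTGT on either strand, and in Adgra3 also CCGGAA, the core word of ETS factors, on either strand. The windows are chr5:50058947-50059246 on the minus strand for Adgra3, chr4:43875280-43875579 on the plus strand for Reck and chr6:21852484-21852783 on the minus strand for Tspan12, each written 5′ to 3′ along the gene.
Adgra3: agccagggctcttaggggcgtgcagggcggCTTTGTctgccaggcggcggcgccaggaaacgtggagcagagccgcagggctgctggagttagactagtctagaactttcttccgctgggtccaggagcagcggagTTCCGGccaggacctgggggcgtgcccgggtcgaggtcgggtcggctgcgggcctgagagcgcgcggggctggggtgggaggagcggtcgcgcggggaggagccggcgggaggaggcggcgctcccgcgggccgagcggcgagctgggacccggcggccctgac
Reck: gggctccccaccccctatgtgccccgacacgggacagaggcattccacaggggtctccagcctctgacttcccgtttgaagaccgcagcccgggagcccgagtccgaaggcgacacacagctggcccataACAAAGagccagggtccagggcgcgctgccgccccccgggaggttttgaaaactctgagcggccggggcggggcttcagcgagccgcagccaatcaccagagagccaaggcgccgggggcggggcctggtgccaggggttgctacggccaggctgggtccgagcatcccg
Tspan12: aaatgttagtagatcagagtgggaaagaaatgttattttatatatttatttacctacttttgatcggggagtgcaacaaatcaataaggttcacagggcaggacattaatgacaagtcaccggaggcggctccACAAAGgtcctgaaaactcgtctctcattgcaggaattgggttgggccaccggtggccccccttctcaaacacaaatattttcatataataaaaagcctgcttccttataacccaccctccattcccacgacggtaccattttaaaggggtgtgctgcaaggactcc
Counted from the transcription start, the TCF/LEF word began at -220 in Adgra3, at -120 in Reck and at -117 in Tspan12, and the ETS word at -114 in Adgra3. Of all 32851 promoter windows of this length, 31.2% held the word, and 14.9% held the ETS word. The windows of Adgra3, Fzd4 and Reck were rich in CpG, with 34, 32 and 23 CpG sites, whereas the window of Tspan12 held 7, which is also the median of all windows. The Fzd4 window, chr7:89404116-89404415 on the plus strand, held neither word. These matches are descriptions of letters and not binding sites.

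Levels of different genes were compared as TMM-scaled CPM per kilobase of exon. Tspan12 was the most abundant of the 8 genes, with 71.4 and 62.9 CPM per kilobase in the Pd1fl/fl libraries and 79.7 and 92.3 in the Pd1cKO-Tie2 libraries, and it made up between 68.8% and 78.2% of the summed level of the 8 genes in a library. Its mean level over the 4 libraries lay at the 96.3rd percentile of tested genes. Fzd4 and Adgra2 followed at the 75.5th and the 74.2nd percentile, Lrp6, Adgra3, Fzd6 and Reck lay between the 43.7th and the 22.5th, and Lrp5 lay at the 2.80th percentile. In Pd1fl/fl libraries the Norrin receptor Fzd4 and its partner Tspan12 averaged 12.2 and 67.2 CPM per kilobase. The Wnt7 partners Adgra2 and Reck were less abundant there, at 4.59 and 0.647.

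The order of the levels differed between the genotypes. In Pd1fl/fl libraries the mean level fell from Tspan12 (67.2 CPM per kilobase) through Fzd4 (12.2), Adgra2 (4.59), Lrp6 (3.17), Fzd6 (1.96), Adgra3 (1.47) and Reck (0.647) to Lrp5 (0.198). In this order the neighbours Adgra2 and Lrp6, Lrp6 and Fzd6, and Fzd6 and Adgra3 differed by less than the larger of their standard deviations over the 2 libraries. In Pd1cKO-Tie2 libraries Adgra2 stood second at 17.5 CPM per kilobase, followed by Fzd4 (11.5), Adgra3 (2.62), Lrp6 (2.62), Reck (1.47), Fzd6 (1.02) and Lrp5 (0.249). Here Adgra3 and Lrp6, and Reck and Fzd6, did not differ beyond their spread. The exchange of places between Adgra2 and Fzd4 held in each library. Adgra2 stood at 0.370 and 0.382 times the level of Fzd4 in the Pd1fl/fl libraries and at 1.93 and 1.24 times in the Pd1cKO-Tie2 libraries. This pair was chosen after its values were seen, and its ratio was given no test.

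**Figure D1:**
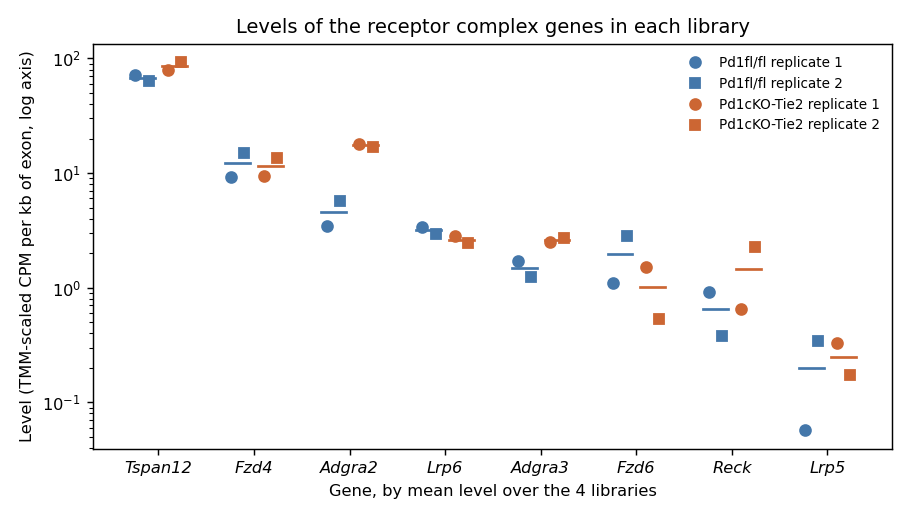
Level of each of the 8 genes in each library, in TMM-scaled CPM per kilobase of exon on a log axis, with 1 point per library colored by genotype and a bar at the mean of each genotype. Tspan12 lies highest in every library, Adgra2 is the only gene whose Pd1cKO-Tie2 points both lie more than 2-fold above both Pd1fl/fl points, and Lrp5 lies lowest.

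The study's methods ask for a 2-fold or larger difference and a p of at most 0.05, and this criterion was applied here to the unadjusted p of edgeR's quasi-likelihood test. Of the 8 genes, Adgra2 alone met it, and it was higher in Pd1cKO-Tie2 endothelial cells. The 7 other genes did not meet it. Among all 15909 tested genes, 4.02% met the criterion, 1.41% as higher and 2.61% as lower in Pd1cKO-Tie2 cells. With counts scaled to the endothelial markers instead, 138 genes met it as higher and 859 as lower, against 224 and 416, and Adgra2 still met it. With Benjamini-Hochberg adjustment edgeR called 0 genes at the 0.05 level, and the adjusted p of the 8 genes lay between 0.735 and 1.00. The unadjusted p of edgeR was under 0.05 in 1016 genes, or 6.39%, and DESeq2 called 114 genes at an adjusted p under 0.05.

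Adgra2, the gene of the Wnt7 co-activator Gpr124, had 288 and 471 counts in the Pd1fl/fl libraries and 2493 and 1335 in the Pd1cKO-Tie2 libraries, which after scaling were 19.9 and 33.1 against 104.1 and 97.6 CPM. The Pd1cKO-Tie2 libraries lay close together, 1.07-fold apart, whereas the Pd1fl/fl libraries were 1.66-fold apart, and the lower Pd1cKO-Tie2 library was 2.95-fold above the higher Pd1fl/fl library. Within a genotype the median gene with at least 10 counts in every library differed 1.30-fold between libraries in both genotypes. The log2 fold change was 1.93 ± 0.31 (SE, n = 2 per genotype, 95% interval 1.15 to 2.70, edgeR adjusted p = 0.735). The adjusted p ranged from 8.67e-05 in DESeq2 to 0.909 with edgeR without Pd1cKO-Tie2 replicate 1. Without Pd1fl/fl replicate 1, the library with the neutrophil transcripts, the log2 fold change was 1.61. The counting error was small beside these differences, with an exact Poisson interval of 256 to 323 for the smallest of the 4 counts, and such intervals cover counting error only.

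Reck, the glycosylphosphatidylinositol-anchored partner of Gpr124, did not meet the criterion. Its counts were 63 and 26 in the Pd1fl/fl libraries and 75 and 149 in the Pd1cKO-Tie2 libraries, or 4.36 and 1.83 against 3.13 and 10.9 CPM. The genotypes overlapped, because only Pd1cKO-Tie2 replicate 2 was above both Pd1fl/fl libraries. The log2 fold change was 1.18 ± 0.96 with a 95% interval from -1.21 to 3.56 (edgeR adjusted p = 0.991), and this interval held both 0 and the value of Adgra2. Leaving out single libraries moved the value from 0.021, without Pd1cKO-Tie2 replicate 2, to 1.93, without Pd1fl/fl replicate 1.

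Adgra3, whose product Gpr125 is the closest relative of Gpr124 among adhesion receptors, had 199 and 144 counts in the Pd1fl/fl libraries and 490 and 302 in the Pd1cKO-Tie2 libraries, or 13.8 and 10.1 against 20.5 and 22.1 CPM. Both Pd1cKO-Tie2 libraries were above both Pd1fl/fl libraries, the lower of them by 1.49-fold. The difference did not meet the criterion (log2 fold change 0.83 ± 0.38, 95% interval -0.11 to 1.78, edgeR adjusted p = 0.849). Per length, Adgra2 stood at 2.03 and 4.60 times the level of Adgra3 in the Pd1fl/fl libraries and at 7.15 and 6.21 times in the Pd1cKO-Tie2 libraries. This ratio, which does not depend on the scaling of a library, was 1.12 higher on the log2 scale in Pd1cKO-Tie2 cells (exact two-sided permutation test, p = 0.333, the smallest p that 2 libraries against 2 can give). The difference was 0.54 without Pd1fl/fl replicate 1 and 1.71 without Pd1fl/fl replicate 2. The ratio of Adgra2 to Reck was 3.78 and 15.0 in the Pd1fl/fl and 27.5 and 7.41 in the Pd1cKO-Tie2 libraries, and the genotypes overlapped (log2 difference 0.92, exact permutation p = 0.667). This difference turned to -0.070 without Pd1fl/fl replicate 1 and to -0.022 without Pd1cKO-Tie2 replicate 1, and was 1.92 and 1.87 without replicate 2 of the respective genotype. With the ratios of Fzd4 to Fzd6 and of Lrp5 to Lrp6 below, 4 ratios were tested, each with a Benjamini-Hochberg adjusted p of 0.667, and with 2 libraries against 2 none of them could reach the 0.05 level.

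**Figure D2:**
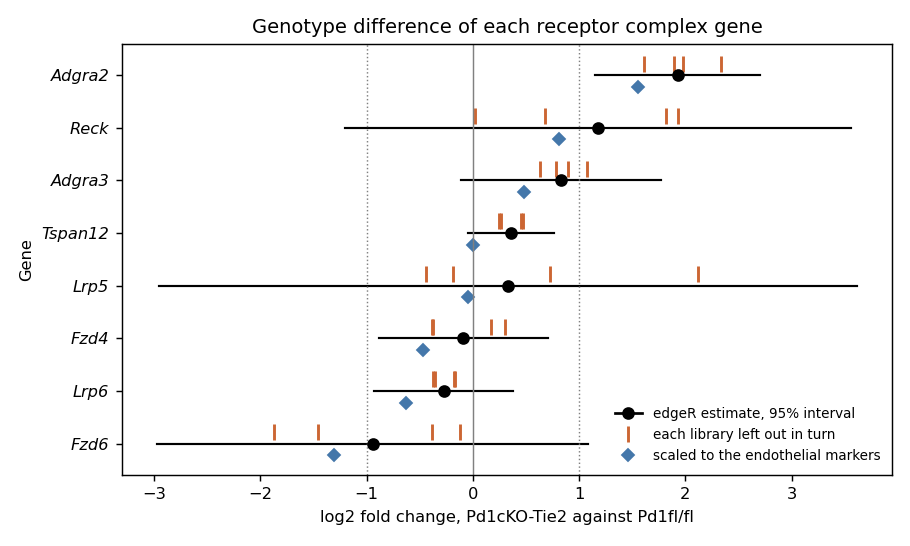
Log2 fold change of each of the 8 genes, Pd1cKO-Tie2 against Pd1fl/fl, with its 95% interval from edgeR (black). Orange ticks give the value with each library left out in turn, and blue diamonds the value scaled to the endothelial markers. The solid line marks 0, and dotted lines mark a 2-fold difference in either direction. The interval of Adgra2, from 1.15 to 2.70, lies above 0, and those of the 7 other genes include 0.

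The receptors themselves showed no change that met the criterion. Fzd4, the Frizzled that binds Norrin, had 62.6 and 100.9 CPM in the Pd1fl/fl libraries and 62.8 and 91.2 CPM in the Pd1cKO-Tie2 libraries. The 4 libraries interleaved, and the log2 fold change was -0.09 ± 0.32 with a 95% interval from -0.89 to 0.71 (edgeR adjusted p = 1.00). A change of Fzd4 as large as that of Adgra2 lay outside this interval. The direction of this small difference was not stable, since it was 0.30 without Pd1fl/fl replicate 2 and 0.17 without Pd1cKO-Tie2 replicate 1.

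Fzd6, a Frizzled known for its part in planar cell polarity, was low and scattered, with 77 and 193 counts in the Pd1fl/fl libraries and 173 and 35 in the Pd1cKO-Tie2 libraries. These were 5.33 and 13.6 against 7.22 and 2.56 CPM, and the genotypes overlapped. Its log2 fold change was -0.94 ± 0.82 (95% interval -2.97 to 1.09, edgeR adjusted p = 0.998). It was -1.46 and -0.12 without Pd1fl/fl replicate 1 and 2, and -1.87 and -0.38 without Pd1cKO-Tie2 replicate 1 and 2. Per length, Fzd4 stood at 8.43 and 5.33 times the level of Fzd6 in the Pd1fl/fl libraries and at 6.23 and 25.6 times in the Pd1cKO-Tie2 libraries (log2 difference 0.91, exact permutation p = 0.667). The wide ratio in Pd1cKO-Tie2 replicate 2 rested on the 35 counts of Fzd6 in that library. Without this library the log2 difference was -0.11, and without Pd1cKO-Tie2 replicate 1 it was 1.93.

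The co-receptors Lrp5 and Lrp6, which bind Wnts together with a Frizzled and recruit Axin to the membrane, differed widely in level. Lrp6 had 46.0 and 40.6 CPM in the Pd1fl/fl libraries and 38.3 and 33.3 CPM in the Pd1cKO-Tie2 libraries, so both Pd1cKO-Tie2 libraries were below both Pd1fl/fl libraries. The difference was small and did not meet the criterion (log2 fold change -0.27 ± 0.26, 95% interval -0.93 to 0.38, edgeR adjusted p = 1.00). Lrp5 was close to the limit of these libraries, with 8 and 47 counts in the Pd1fl/fl libraries and 76 and 23 in the Pd1cKO-Tie2 libraries. The count of 8 has an exact Poisson interval from 3.45 to 15.8, and the count of 47 has one from 34.5 to 62.5. These intervals did not overlap, and the Pd1fl/fl libraries were 5.97-fold apart. A change of Lrp5 was therefore not detectable in these libraries unless it was very large (log2 fold change 0.33 ± 1.33, 95% interval -2.95 to 3.62, edgeR adjusted p = 1.00). Per length, Lrp5 stood at 0.017 and 0.114 times the level of Lrp6 in the Pd1fl/fl and at 0.116 and 0.071 times in the Pd1cKO-Tie2 libraries (log2 difference 1.05, exact permutation p = 0.667). This difference was -0.33 without Pd1fl/fl replicate 1, 2.43 without Pd1fl/fl replicate 2 and 0.69 without Pd1cKO-Tie2 replicate 1.

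Tspan12, the tetraspanin partner of Fzd4, was measured with the highest precision of the 8 genes. It had 236.5 and 208.3 CPM in the Pd1fl/fl libraries and 263.9 and 305.7 CPM in the Pd1cKO-Tie2 libraries. Both Pd1cKO-Tie2 libraries were higher, by a log2 fold change of 0.36 ± 0.16 (95% interval -0.048 to 0.76, edgeR adjusted p = 0.849), which did not meet the criterion. When the libraries were scaled to the endothelial markers instead, the log2 fold change was -0.0023, so the level of Tspan12 relative to those markers was alike on average in both genotypes.

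Of the 8 genes, 5 had a log2 fold change above 0 and 3 below, with a median of 0.34, beside a median of -0.0038 and 49.6% above 0 for all tested genes. With the endothelial marker scaling 3 of the 8 genes were above 0 and their median was -0.026, beside -0.36 for all tested genes. Their median was 0.14 without Pd1fl/fl replicate 1 and also without Pd1cKO-Tie2 replicate 2. In 3 of the 8 genes (Adgra2, Adgra3 and Tspan12) both Pd1cKO-Tie2 libraries exceeded both controls, and in 1 (Lrp6) both lay below. Among all tested genes 17.7% lay above in this sense and 18.1% below, together 35.8%. With so few genes, the 4 of 8 without overlap are no result about the receptor genes. Adgra2 took up 3.78% and 6.27% of the summed per-kilobase level of the 8 genes in the Pd1fl/fl libraries and 15.7% and 12.9% in the Pd1cKO-Tie2 libraries. The sum itself was 91.4 CPM per kilobase in both Pd1fl/fl libraries and 114.9 and 130.9 in the Pd1cKO-Tie2 libraries.

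The genes whose pattern over the 4 libraries was most like that of Adgra2 were sought among 9085 tested genes with a mean of at least 10 CPM. Likeness was the root mean square difference of the log2 CPM after centering each gene on its mean, and predicted genes and the 8 genes themselves were left out. The nearest were Fam57b at 0.239, Lrp3 at 0.267, Dmtn at 0.312, Ankrd54 at 0.325 and Haus6 at 0.341. Fam57b had 49 and 112 counts in the Pd1fl/fl libraries and 390 and 219 in the Pd1cKO-Tie2 libraries. Like Adgra2, it was lowest in Pd1fl/fl replicate 1 and near level in the Pd1cKO-Tie2 libraries. The transcript of Adgra2 is rich in GC, at 59.6% or the 95.6th percentile of tested genes, and Fam57b, Lrp3 and Ankrd54 lay at the 98.2nd, the 99.3rd and the 93.1st percentile, whereas Dmtn and Haus6 lay at the 73.9th and the 11.9th. With each library's trend of level with GC content removed, the log2 fold change of Adgra2 was 1.85. Of the 7 other receptor genes the nearest to Adgra2 in pattern was Adgra3, which ranked 711th, followed by Tspan12 at 2370th and Lrp5 at 2909th. Reck ranked 6820th. These ranks are among all 15909 tested genes, also those under 10 CPM, counting Adgra2 itself as the first.

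**Figure D3:**
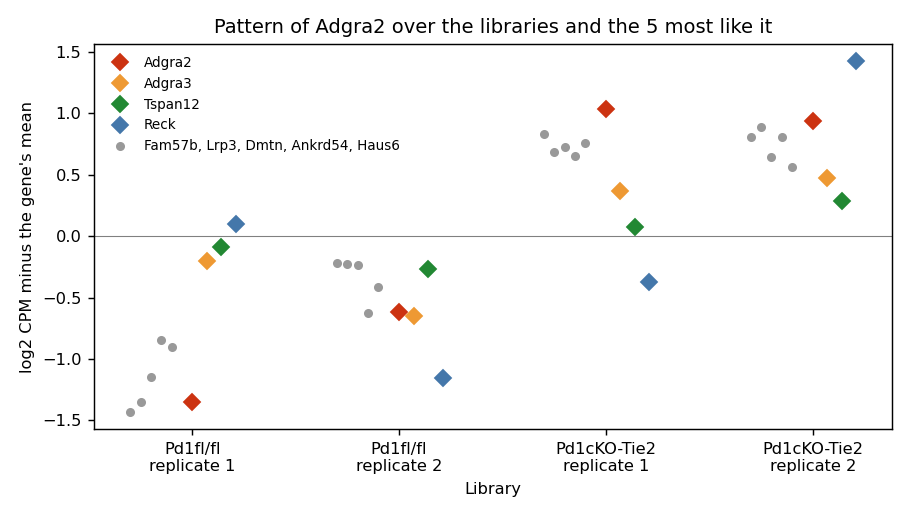
Log2 CPM minus the gene's mean over the 4 libraries for Adgra2, Adgra3, Tspan12 and Reck (diamonds) and for the 5 genes with the pattern most like Adgra2 (gray points), by library. Adgra2 and the gray points lie below 0 in both Pd1fl/fl libraries and above 0 in both Pd1cKO-Tie2 libraries, whereas Reck lies above 0 in 1 library of each genotype.

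The ligands of this pathway were low in the sorted cells, and none met the criterion. Of 20 Wnt and Norrin genes on the list 13 were in the tables and 6 could be tested, with 0 changed in either direction and a median log2 fold change of -0.22. Leaving out Pd1cKO-Tie2 replicate 1 gave a median of -0.080, and leaving out replicate 2 gave -0.34. Wnt7a and Wnt7b, the ligands of Gpr124 and Reck, are named here for that role. Wnt7a had 5.12 and 3.73 CPM in the Pd1fl/fl libraries and 4.05 and 2.92 in the Pd1cKO-Tie2 libraries, and these ranges overlapped (log2 fold change -0.34, edgeR adjusted p = 1.00). Wnt7b had 17.2 and 10.5 CPM against 19.1 and 19.4, so both Pd1cKO-Tie2 libraries were higher, without meeting the criterion (0.47, edgeR adjusted p = 1.00). Ndp, which encodes Norrin, had 9.41 and 6.54 CPM against 5.43 and 8.62 and overlapped between genotypes (-0.18, edgeR adjusted p = 1.00). By the smallest p the list was otherwise led by Wnt5a (-0.25, edgeR adjusted p = 1.00) and Wnt5b (-1.30, edgeR adjusted p = 1.00), Wnts that act mostly without beta-catenin.

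Of the 13 other Frizzleds and Wnt receptors 9 could be tested, and 1 was lower and 0 higher, with a median log2 fold change of -0.18. The direction of the median was not stable, since it was 0.39 without Pd1fl/fl replicate 2, 0.015 without Pd1fl/fl replicate 1, 0.098 in limma-voom and 0.18 with at least 10 counts in every library. The lower one was Fzd9, another Frizzled, with 30 and 10 counts in the Pd1fl/fl libraries and 0 in both Pd1cKO-Tie2 libraries. Against a floor of 3 counts in each Pd1cKO-Tie2 library it was at least 8.07-fold lower over the group, or at least 4.08-fold lower when only the lower Pd1fl/fl library is used (edgeR adjusted p = 0.735). It met the criterion under 7 of the 12 alternatives that gave it a value, and not in limma-voom, without a filter on low counts, or without Pd1fl/fl replicate 2 or either Pd1cKO-Tie2 library. Without Pd1fl/fl replicate 1 it could not be tested. Fzd1 had 121 and 136 counts against 302 and 303. After scaling, both Pd1cKO-Tie2 libraries were above both Pd1fl/fl libraries (log2 fold change 0.95, edgeR adjusted p = 0.885). The 2 scaled Pd1cKO-Tie2 levels were unequal, because replicate 1 held 24147311 counted reads and replicate 2 held 14157027. Fzd1 met the criterion without Pd1cKO-Tie2 replicate 1, at 1.31, and was at 0.50 without Pd1cKO-Tie2 replicate 2. Ror1, a receptor kinase for Wnt5a, had 113 and 63 counts against 213 and 234 and was placed likewise after scaling (1.08, edgeR adjusted p = 0.916). It was at 1.49 without Pd1cKO-Tie2 replicate 1 and at 0.54 without Pd1cKO-Tie2 replicate 2.

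Among the genes that set how long the receptors stay at the surface and what reaches them, 0 met the criterion. Of 9 R-spondin and receptor turnover genes 3 could be tested, and the median log2 fold change was 0.088. This median rested on single libraries, since it was -2.0 and -0.19 without Pd1cKO-Tie2 replicate 1 and 2, and -0.35 and 1.93 without Pd1fl/fl replicate 1 and 2. Znrf3, the ubiquitin ligase that removes Frizzleds from the surface, was abundant and level, with 193.6 and 196.5 CPM in the Pd1fl/fl libraries and 170.4 and 244.5 CPM in the Pd1cKO-Tie2 libraries (log2 fold change 0.088, edgeR adjusted p = 1.00). Lgr4, an R-spondin receptor, and the R-spondin Rspo2 were each scattered within a genotype, Lgr4 with 5 and 105 counts against 41 and 13 (edgeR adjusted p = 1.00) and Rspo2 with 0 and 50 against 131 and 0 (edgeR adjusted p = 1.00). Of 15 extracellular Wnt inhibitors 10 could be tested, with a median of -0.28, which was -0.69 without Pd1cKO-Tie2 replicate 1 and 0.016 without Pd1cKO-Tie2 replicate 2. One of these genes met the criterion without Pd1fl/fl replicate 1, as higher, and 1 without Pd1cKO-Tie2 replicate 1, as lower. Dkk3 had 112.5 and 90.9 CPM in the Pd1fl/fl libraries against 83.2 and 66.1 in the Pd1cKO-Tie2 libraries, both of them lower (-0.45, edgeR adjusted p = 0.906). The secreted Frizzled-related genes Sfrp1 (-0.36, edgeR adjusted p = 0.981) and Sfrp2 (-0.89, edgeR adjusted p = 1.00) followed.

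Of 19 intracellular transducers 18 could be tested, 0 met the criterion in either direction, and the median log2 fold change was 0.17. The median was 0.27 without Pd1fl/fl replicate 1, 0.080 without Pd1fl/fl replicate 2, 0.0068 without Pd1cKO-Tie2 replicate 1 and -0.18 with the endothelial marker scaling, and 1 gene met the criterion as higher without either Pd1fl/fl library. The smallest p belonged to Csnk1a1, the kinase that primes beta-catenin for destruction, with 739.0 and 714.5 CPM against 890.4 and 986.3 (0.37, edgeR adjusted p = 0.735), a difference under 2-fold. Ctnnbip1, an inhibitor of the binding of beta-catenin to TCF factors (0.54, edgeR adjusted p = 0.912), and the TCF factor Tcf7l2 (0.34, edgeR adjusted p = 0.946) came next, and both were higher in each Pd1cKO-Tie2 library than in either Pd1fl/fl library. With the endothelial marker scaling Csnk1a1 was at 0.0084, Ctnnbip1 at 0.18 and Tcf7l2 at -0.023. Of the 4 proteases that Reck is known to inhibit, 0 met the criterion. Mmp9 had 156.6 and 72.0 CPM in the Pd1fl/fl libraries and 56.5 and 60.4 in the Pd1cKO-Tie2 libraries, a log2 fold change of -0.97, just under 2-fold (edgeR adjusted p = 0.760). It met the criterion under 3 of 14 alternatives, with library size scaling (-1.02), with endothelial marker scaling (-1.31) and without Pd1fl/fl replicate 2 (-1.42), and it was -0.30 without Pd1fl/fl replicate 1. The high value was that of Pd1fl/fl replicate 1, the library with the neutrophil transcripts, and the part of these in the value of Mmp9 was not tested. Mmp14 (0.48, edgeR adjusted p = 0.991) overlapped between genotypes, and Mmp2 (-2.11, edgeR adjusted p = 0.991) had 99 and 139 counts against 91 and 0 and met the criterion only without Pd1cKO-Tie2 replicate 1. The 4 proteases had a median of -0.10 without Pd1fl/fl replicate 1, against -0.43 with all libraries, and with at least 10 counts in every library it was 0.097.

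The 20 genes listed as targets of the pathway in brain endothelium could all be tested, and 1 was higher and 0 lower by the criterion, with a median log2 fold change of 0.36. The changed gene was Plvap, a component of fenestrae that is known to be repressed by this pathway, with 62 and 84 counts in the Pd1fl/fl libraries and 583 and 128 in the Pd1cKO-Tie2 libraries (1.73 ± 0.63, edgeR adjusted p = 0.753). Plvap met the criterion under 11 of 14 alternatives, and not with endothelial marker scaling (1.38), without Pd1fl/fl replicate 1 (1.52) or without Pd1cKO-Tie2 replicate 1 (0.88). Apcdd1, a feedback inhibitor induced by beta-catenin, had 762.7 and 692.9 CPM against 1093 and 1037 (0.55 ± 0.12, edgeR adjusted p = 0.735). Its adjusted p was 0.0135 in DESeq2, 0.00771 in DESeq2 on the filtered genes and 0.645 in limma-voom. Slc2a1, the glucose transporter of the barrier, had 3536 and 3617 CPM against 4611 and 4499 (0.35 ± 0.08, edgeR adjusted p = 0.735). Both genes were higher in each Pd1cKO-Tie2 library than in either Pd1fl/fl library, by less than 2-fold. With the endothelial marker scaling Apcdd1 fell to 0.19 and Slc2a1 turned to -0.010. Of the 20 targets, 19 had a log2 fold change above 0, and in 16 both Pd1cKO-Tie2 libraries exceeded both controls, beside 17.7% of all tested genes. The exception below 0 was Axin2, singled out after its values were seen, with 206 and 24 counts against 102 and 66 with an edgeR adjusted p of 1.00. Without Pd1fl/fl replicate 1, the library with 206 counts, 20 of the 20 targets were above 0. Without each other library in turn, 17 to 19 were.

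**Figure D4:**
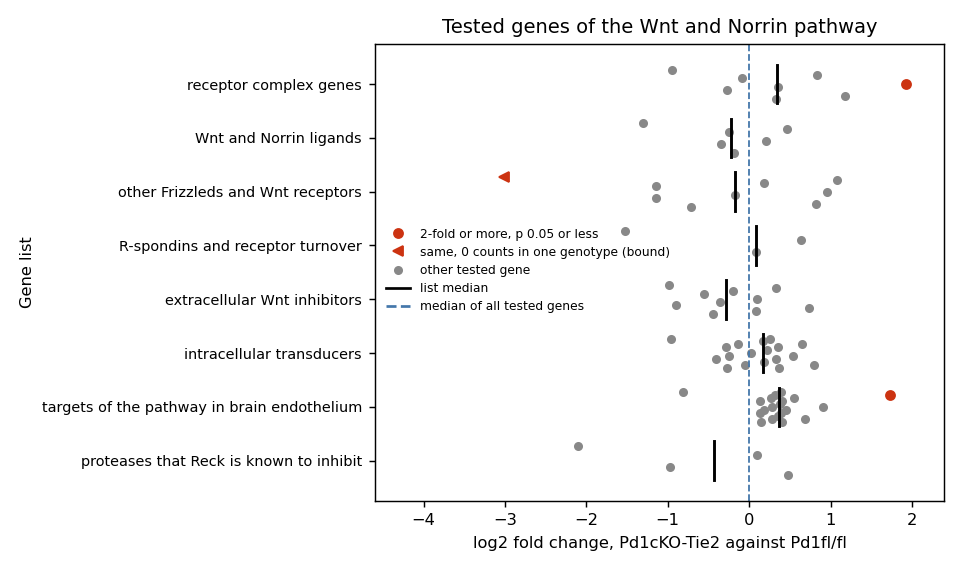
Log2 fold change of every tested gene of the 8 receptor complex genes and of 7 pathway lists, Pd1cKO-Tie2 against Pd1fl/fl, with the median of each list (black bars) and of all tested genes (dashed line). Points in red met the criterion, namely Adgra2, Plvap and Fzd9, and the triangle marks the bound for Fzd9, whose Pd1cKO-Tie2 libraries held 0 counts.

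Markers of endothelial and other cell types moved with genotype as well. The 16 endothelial markers summed to 13242 and 12238 CPM in the Pd1fl/fl libraries and to 15819 and 16842 in the Pd1cKO-Tie2 libraries. All 16 were higher in both Pd1cKO-Tie2 libraries, with 0 meeting the criterion and a median log2 fold change of 0.34, beside 0.36 for Tspan12 and for the median of the targets. Cldn5 stands on both the endothelial and the target list. It was the largest part of the sums of the 16 markers, with 5505 and 4764 CPM in the Pd1fl/fl libraries and 6548 and 6993 in the Pd1cKO-Tie2 libraries. With the libraries scaled to these markers the median of the 20 targets was 0.0042, 10 of them were above 0, and Plvap no longer met the criterion, whereas the log2 fold change of Adgra2 was 1.56 (edgeR adjusted p = 0.396) and it still met the criterion, or 1.92 above the median of all genes.

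The astroglial and radial glial markers, 9 genes all present in every library, summed to 1202 and 1495 CPM in the Pd1fl/fl libraries and to 876 and 674 in the Pd1cKO-Tie2 libraries, with 2 lower by the criterion (Fabp7 and Hes5). The 9 microglial and macrophage markers, also present in every library, summed to 1973 and 2393 CPM against 727 and 1672, with 1 lower (Tmem119). The 11 mural markers summed to 5757 and 3756 CPM against 3856 and 3833, with 0 changed, and the smooth muscle marker Acta2 was at 0 in 3 libraries. The astroglial and microglial sums were thus lower in both Pd1cKO-Tie2 libraries, and their part in the values of the 8 genes was not tested. With the endothelial marker scaling 6 of the 9 astroglial and 6 of the 9 microglial markers were lower by the criterion, with medians of -1.14 and -1.24. This scaling also moved the median of all tested genes to -0.36 and raised the number of all genes lower by the criterion, as given above. Without Pd1fl/fl replicate 2, and also without Pd1cKO-Tie2 replicate 2, 0 astroglial markers met the criterion. The median of the microglial markers was -0.37 without Pd1cKO-Tie2 replicate 1 and -1.70 without Pd1cKO-Tie2 replicate 2. The medians of all tested genes were then -0.068 and -0.035. Of the 7 neutrophil markers 3 could be tested and 2 were lower, but 0 without Pd1fl/fl replicate 1. Of these 7 markers 4 had 0 counts in the second Pd1fl/fl library, 3 in the first Pd1cKO-Tie2 library and 5 in the second. The summed levels of the neuronal list (936 to 1352 CPM), the oligodendrocyte lineage list (78.3 to 163), the erythroid list (547 to 1060) and the fibroblast list (36.6 to 108) overlapped between genotypes, and 0 of their genes met the criterion with TMM scaling and all libraries. With the endothelial marker scaling, and also with library size scaling, 1 neuronal gene met it as lower. The neuronal median was -0.14 with all libraries, and from -0.28 to 0.070 when single libraries were left out. The median log2 fold change of the 3 tested fibroblast genes was -0.044. It was 1.96 without Pd1fl/fl replicate 1 and -1.0 without Pd1cKO-Tie2 replicate 2.

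**Figure D5:**
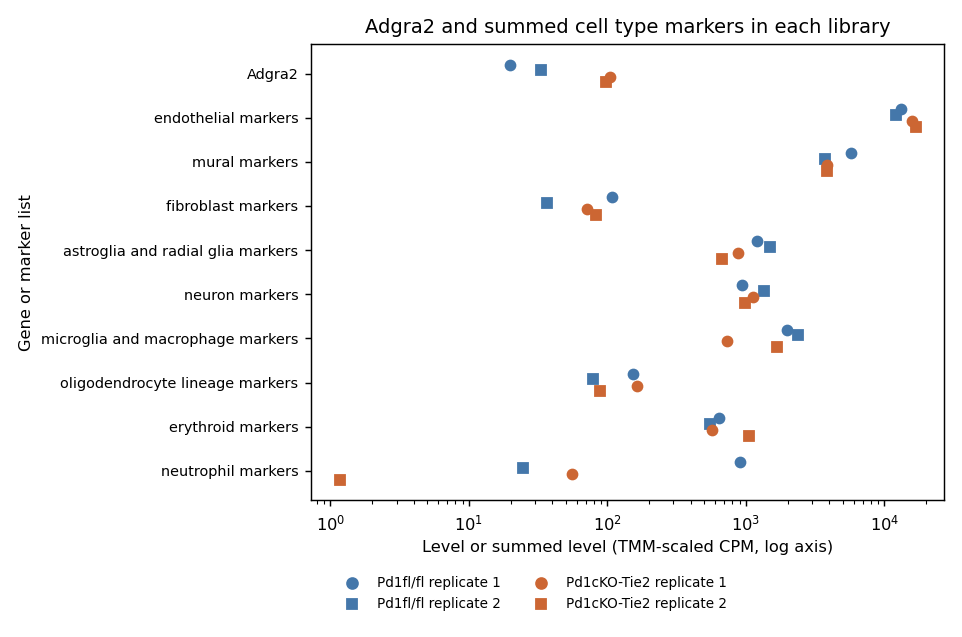
Level of Adgra2 and summed level of each cell type marker list in each library, in TMM-scaled CPM on a log axis, with circles for replicate 1 and squares for replicate 2 of each genotype. Adgra2 and the endothelial markers lie higher in both Pd1cKO-Tie2 libraries, the astroglial and microglial markers lie lower, and the neutrophil markers reach 906 CPM in Pd1fl/fl replicate 1 alone.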

How the data were processed

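The authors deposited 4 tables, each pairing 1 Pd1cKO-Tie2 with 1 Pd1fl/fl library. The deposited counts are whole, unnormalized numbers of reads per gene. The CPM values are the authors' counts divided by each library's total, and were used here only to recover that total. Fold changes and p-values of each pair were also deposited and were not used. The submitters' processing notes name Bowtie2 2.2.3, TopHat2 2.0.12 and HTSeq 0.6.0 and the build mm9, but the gene positions in the tables are those of GRCm38, since 90.0% of the 21578 genes have the same position in GENCODE M21. The use of strand is not given in the sources used here.

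The tables were joined by gene identifier. Among them 10 broken lines were skipped and 23 symbols that had become dates were restored. Genes absent from the tables of a library were given a count of 0 there, since a table lists a gene only when both libraries hold a count or 1 holds at least 5. Such a filled-in 0 can stand for up to 4 counts. A count of 0 that is listed allows up to 3 counts, or 0.125 to 0.219 CPM.

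The counts of 15909 genes that passed filterByExpr were fitted by genotype alone in edgeR 4.0.16 (R 4.3.3), with TMM scaling, and tested with its quasi-likelihood test. The common biological coefficient of variation was 0.610. Changed genes had at least a 2-fold change with p of 0.05 or less, and p-values were adjusted by the Benjamini-Hochberg method across every gene tested. Standard errors were derived from the F statistics. Exon lengths and GC content came from GENCODE M21 and promoter windows from RefSeq. Scripts were tested on simulated counts. The 8 genes, the pathway lists and the marker lists were chosen with earlier results of these data known. In each pathway list the changed genes are named, and up to 3 in all by the smallest p. Other genes are named for a stated role or are marked as chosen after their values were seen.

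Alternatives were DESeq2 1.42.0, limma-voom (limma 3.58.1), other filters on low counts, RLE, upper quartile, library size and endothelial marker scaling, a GC content offset by lowess (span 0.3), and leaving out each library in turn. DESeq2 on the filtered genes was added after seeing the data.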

Additional observations from a re-analysis of the deposited data

How the results depend on the processing

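Adgra2 met the criterion under all 14 alternatives, with log2 fold changes from 1.56 (endothelial marker scaling) to 2.34 (without Pd1fl/fl replicate 2), and no other receptor gene met it under any of them. Scaling to endothelial markers shifted the median of all tested genes to -0.36 and turned the direction of Lrp5 (-0.050) and Tspan12 (-0.0023). The number of changed genes was then 997, with 138 higher and 859 lower, or 13.8% higher against 35.0%. Limma-voom gave 137 genes as higher, the filter of at least 10 counts 142, and DESeq2 632 as lower. At an adjusted p under 0.05 DESeq2 called 114 genes, or 116 on the filtered genes. When single libraries were left out, the remaining library of its genotype was assumed to vary like the other genotype. The changed genes then numbered 691 to 871, with 141 to 484 higher and 387 to 574 lower, of which 19.7% to 55.6% were higher, and 0 to 1 genes had an adjusted p under 0.05. The 484 and the 1 were found without Pd1fl/fl replicate 2. The log2 fold change ranged from -0.44 to 2.12 for Lrp5, turning without Pd1fl/fl replicate 1 (-0.44) and without Pd1cKO-Tie2 replicate 1 (-0.19), and from -0.39 to 0.30 for Fzd4, turning without Pd1fl/fl replicate 2 (0.30) and without Pd1cKO-Tie2 replicate 1 (0.17). Except where a setting's own construction shows it, the cause was not tested. Lrp5, with 8 counts in a library, gave no value under the filter of at least 10 counts. No paired analysis was possible because the labels of the genotypes share only 1 replicate number. With 2 libraries per genotype the precision is limited by the spread between libraries and, for Lrp5, Reck and Fzd9, by low counts.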
